A study of Homo sapiens with 12 samples.

Results

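The genes described here encode the inhibitors of cyclin-dependent kinases (CDKs): the CIP/KIP inhibitors CDKN1A (p21), CDKN1B (p27) and CDKN1C (p57), the INK4 inhibitors CDKN2A (p16, with ARF from the same gene), CDKN2B (p15), CDKN2C (p18) and CDKN2D (p19), and the antisense RNA CDKN2B-AS1, also called ANRIL. They were chosen by name, as 8 of the 58037 gene identifiers in a table of raw RNA-seq counts, and 6 of the 8 had enough reads to be tested in each comparison. CDKN1C and CDKN2B-AS1 did not.

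CIP/KIP proteins bind cyclin-CDK complexes and can stop CDK2 with cyclin E or cyclin A, whereas INK4 proteins bind CDK4 and CDK6 and keep them from joining D-type cyclins. Active CDKs phosphorylate the retinoblastoma protein RB, which then releases E2F transcription factors and lets the cell enter S phase, so inhibitors of both families hold cells in G1. The CDKN2A and CDKN2B genes lie side by side on the short arm of chromosome 9, where many tumours lose them.

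The study asked what follows when the mucin MUC1 is silenced in androgen-independent prostate cancer cells. RNA came from 2 human lines, DU-145, derived from a brain metastasis, and LNCaP-AI, which was selected from C4-2B cells by long culture without androgen. Both stably carried a doxycycline (DOX)-inducible short hairpin RNA against MUC1 and were selected with puromycin. The labels give phenol red-free RPMI1640 with charcoal-stripped serum for both lines, whereas the study's methods name that medium for LNCaP-AI and RPMI1640 with heat-inactivated fetal bovine serum for DU-145. Where the media differed, line and medium cannot be told apart in the comparison of the lines. Each line was given vehicle or DOX at 500 ng/ml for 7 days, with 3 samples in each of the 4 groups, 12 in all. The labels call these groups shCTL and shMUC1, but all samples of a line carry the same hairpin, and a line with a control hairpin given DOX was not analysed here, so silencing of MUC1 and exposure to DOX cannot be told apart. The study describes triplicate cultures, and p-values measure the spread between these samples.

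Total counts ranged from 10423437 to 13544153 in DU-145 and from 16569613 to 26961777 in LNCaP-AI. MUC1 fell as the labels say: it had 74, 60 and 59 counts with vehicle and 3 in every DOX sample in DU-145, and 36, 25 and 52 against 8, 6 and 3 in LNCaP-AI. Of 4 prostate luminal markers, KLK3, FOLH1 and HOXB13 were at 0 counts in every DU-145 sample, and the list summed to 1070 to 1680 CPM (counts scaled to the library size, TMM normalized) in LNCaP-AI with vehicle. The epithelial markers KRT8, KRT18, EPCAM and CDH1 were present in every sample. In DU-145 edgeR called all 4 higher with DOX, against 26.3% of all genes tested. Their sum there was 868 to 933 CPM with vehicle and 2000 to 2130 with DOX. In LNCaP-AI edgeR called 0 of the 4, where 7.22% of all genes were called higher and 5.52% lower. The sum there was 1230 to 1340 CPM with vehicle and 1410 to 1610 with DOX. Any part of this in the results below was not tested. The 5 markers of other cells summed to 2.05 to 5.05 CPM in DU-145 and 21.8 to 29.8 in LNCaP-AI, most of it COL1A1, and PTPRC never passed 2 counts. LNCaP-AI samples divided across treatment: the first principal component, 82.5% of the variance over genes, grouped vehicle sample 1 with DOX samples 2 and 3, apart from the remaining 3 samples. The endothelial marker PECAM1, singled out after its values were seen, followed the same sides, with 0, 0 and 1 counts against 36, 72 and 62. Its part in the results was not tested. In DU-145 the first component (71.1%) separated vehicle from DOX. LNCaP-AI results of the members tested are therefore also given within each side, without a test. Those of other genes are not.

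CDKN1A had the largest increase on DOX of the 6 tested members in both lines. In DU-145 it had 47.2, 40.4 and 42.0 CPM with vehicle and 184, 182 and 175 with DOX. In LNCaP-AI it had 71.1, 62.5 and 74.0 CPM with vehicle and 697, 860 and 862 with DOX. Every DOX sample of either line lay above every vehicle sample of both lines. The log2 fold change was 2.07 ± 0.07 (standard error, SE) in DU-145, or 4.19-fold, with an adjusted p of 1.445e-13 from edgeR's quasi-likelihood test. In LNCaP-AI it was 3.51 ± 0.13, or 11.4-fold (edgeR adjusted p = 0.00233). CDKN1A had the smallest p of all 16030 genes tested in LNCaP-AI and the 5th smallest of 13644 in DU-145. Within the LNCaP-AI sides the difference was 3.60 for that of vehicle 1 and 3.36 for the other. The increase was larger in LNCaP-AI than in DU-145, by 1.48 ± 0.14 on the log2 scale (edgeR interaction of line and treatment, adjusted p = 0.000458).

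**Figure D1:**
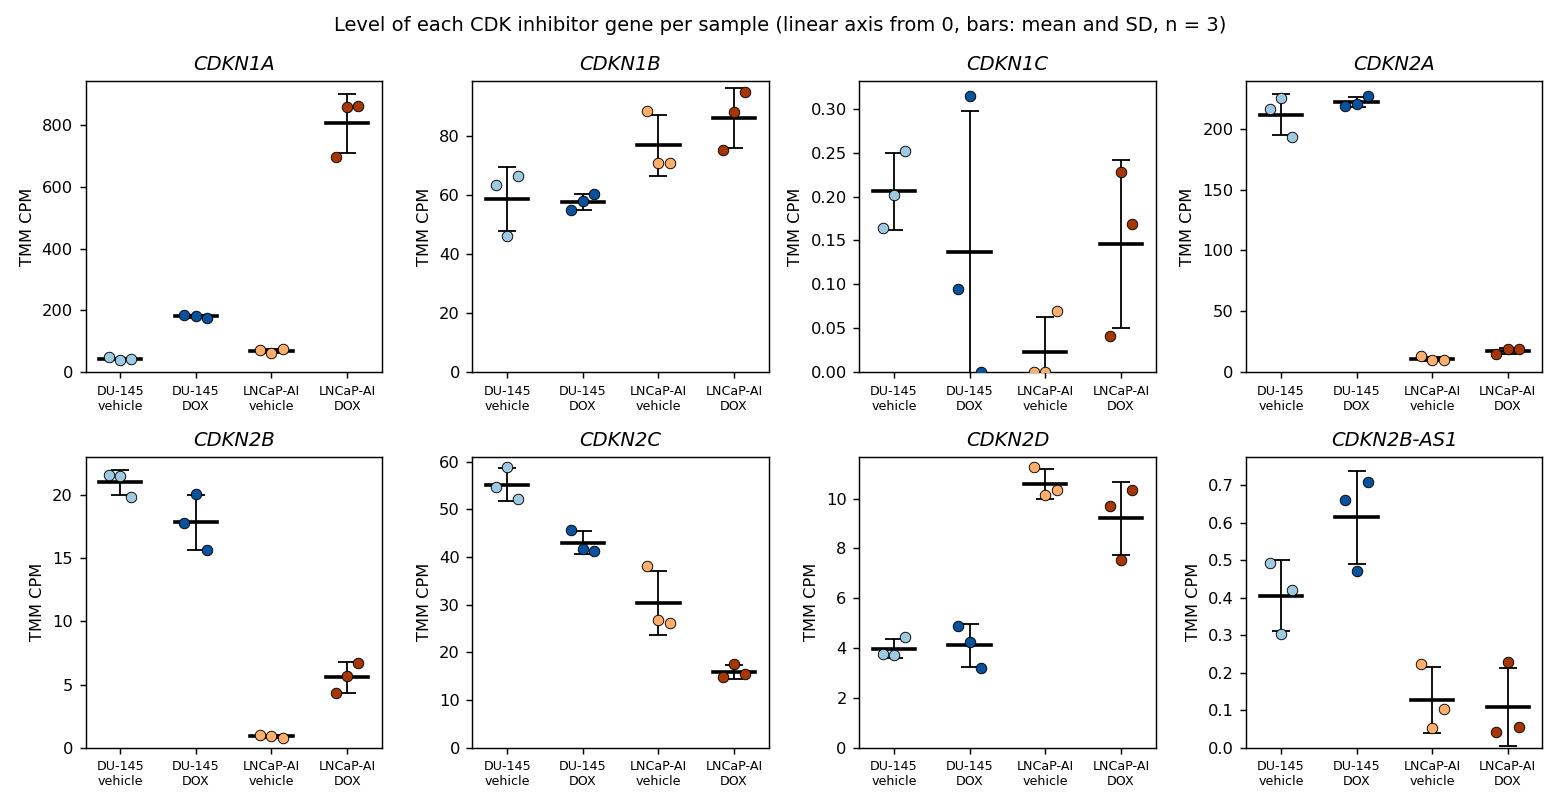
Level of each of the 8 genes in TMM-normalized CPM (vertical axis, linear from 0 with its own scale in each panel) in the 4 groups, with 1 point per sample and bars for mean and SD (n = 3). CDKN1A stands at 175 to 184 CPM in DU-145 and 697 to 862 in LNCaP-AI with DOX, and CDKN2A is high in DU-145 and low in LNCaP-AI with either treatment.

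The CDKN1A gene lies at chr6:36676460-36687337 (GRCh38, plus strand). The 250 bases before its canonical start (RefSeq, GRCh38.p14, chr6:36678464-36678713, plus strand) are shown because this gene changed most. Capitals mark the GC box GGGCGG, the sequence that SP1-type factors bind, searched on both strands.
CDKN1A: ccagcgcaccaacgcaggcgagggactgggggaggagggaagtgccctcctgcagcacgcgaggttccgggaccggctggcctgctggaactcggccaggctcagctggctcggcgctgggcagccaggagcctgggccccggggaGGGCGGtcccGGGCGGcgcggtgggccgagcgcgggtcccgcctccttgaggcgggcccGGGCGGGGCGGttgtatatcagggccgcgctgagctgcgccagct
The window held 4 GC boxes, the last 2 overlapping each other, and no E-box (CACGTG, the motif of MYC with MAX) or CCAAT box (CCAAT). It was 76.4% G and C, against a median of 58% over all 35116 promoter windows of this length. At least 1 GC box stood in 42.6% of those windows. These letters describe the window only.

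CDKN1B, the other well-expressed CIP/KIP gene, showed no change on DOX that passed the test. In DU-145 it had 63.4, 46.3 and 66.7 CPM with vehicle and 55.0, 58.0 and 60.3 with DOX. In LNCaP-AI the values were 88.8, 71.1 and 70.9 with vehicle and 75.2, 88.4 and 95.0 with DOX. The groups overlapped in both lines. The log2 fold changes were -0.02 ± 0.10 (edgeR adjusted p = 0.865) and 0.14 ± 0.14 (edgeR adjusted p = 0.572). In LNCaP-AI the samples on the side of vehicle 1 were the 3 highest, at 88.4 to 95.0 CPM against 70.9 to 75.2 on the other side. Within the sides the DOX difference was 0.05 and 0.08 on the log2 scale. The protein p27 is controlled in large part by its breakdown, which mRNA counts do not measure.

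CDKN1C, an imprinted gene known for restraining growth in the embryo, was at the limit of detection. It had 2, 2 and 3 counts with vehicle and 1, 4 and 0 with DOX in DU-145, and 0, 0 and 2 against 1, 4 and 3 in LNCaP-AI. No group stood clear of the floor of 3 counts per sample, which covers counting error only, and a difference could not be detected at this depth. Its genomic neighbours on the right, SLC22A18 and PHLDA2, were tested and rose in DU-145, with log2 fold changes of 0.67 ± 0.24 (edgeR adjusted p = 0.0244) and 0.80 ± 0.22 (edgeR adjusted p = 0.00556).

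The summed level of the CIP/KIP family therefore came from CDKN1A and CDKN1B. To compare genes, CPM was divided by the length of the canonical transcript in kilobases. The CIP/KIP sum went from 44.9 ± 5.64 (SD, n = 3) to 109 ± 1.39 CPM per kilobase in DU-145, a ratio of 2.44. In LNCaP-AI it went from 64.6 ± 5.70 to 417 ± 48.7, a ratio of 6.45. CDKN1A made up 45.7% of that sum with vehicle and 78.0% with DOX in DU-145, and 50.7% and 91.4% in LNCaP-AI. Vehicle and DOX shares did not overlap in either line, and the exact two-sided permutation test gave p = 0.1, the smallest that 3 samples against 3 allow. When every annotated exon was counted in the length, the CDKN1A share rose by 21.3 percentage points in DU-145 and 23.1 in LNCaP-AI. These stand in place of 32.3 and 40.7, and the choice was added after seeing the data. On that length CDKN1A was above CDKN1B with vehicle already. The levels were 14.4 against 6.35 CPM per kilobase in DU-145 and 23.1 against 8.31 in LNCaP-AI.

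CDKN2A was far higher in DU-145 than in LNCaP-AI and did not pass the test for a change on DOX in either line. DU-145 had 216, 226 and 193 CPM of CDKN2A with vehicle and 219, 221 and 227 with DOX, and these ranges overlapped. The log2 fold change was 0.08 ± 0.07 (edgeR adjusted p = 0.380). In LNCaP-AI the values were 12.8, 10.3 and 9.82 CPM with vehicle and 14.5, 19.1 and 18.6 with DOX. All DOX samples were above all vehicle samples, but the log2 fold change of 0.63 ± 0.18 did not pass the test (edgeR adjusted p = 0.0683). It passed in 5 of 14 alternatives. Among them were DESeq2 (adjusted p = 0.0138), side as a covariate in edgeR (adjusted p = 0.000735) and a single edgeR fit of all 12 samples (adjusted p = 0.00394). Side was derived from these same counts. In the remaining alternatives it did not pass, with an edgeR adjusted p of up to 0.289 (replicate block). Within the sides the difference was 0.55 and 0.53.

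With vehicle, CDKN2A was 19.8-fold lower in LNCaP-AI than in DU-145, a log2 difference of -4.31 ± 0.14 (edgeR adjusted p = 2.937e-06). Of 15628 genes tested between the lines, 2.43% had a lower log2 fold change. The counts do not separate p16 from ARF, which start at different first exons of the same gene. CDKN2A (chr9:21967752-21995301, minus strand) shares 593 bases of annotated exon, or 15.3% of its exon bases, with CDKN2B-AS1 on the plus strand. The libraries were stranded, but the strand setting of the counting is not given in the sources used here. CDKN2B-AS1 had at most 8 counts in any sample, where CDKN2A had 192 or more, and how reads over the shared bases were assigned was not tested. CDKN2B-AS1 had 6, 3 and 5 counts with vehicle and 7, 6 and 8 with DOX in DU-145, and 5, 1 and 3 against 1, 4 and 1 in LNCaP-AI. These ranges met or overlapped in both lines, and no difference was detectable at this depth.

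CDKN2B rose on DOX in LNCaP-AI and not in DU-145. LNCaP-AI had 1.02, 0.908 and 0.763 CPM with vehicle, from 23, 17 and 22 counts, and 4.31, 5.71 and 6.70 with DOX, from 106, 100 and 119 counts. The groups did not overlap. The log2 fold change was 2.60 ± 0.25, or 6.05-fold (edgeR adjusted p = 0.0123), and 0.331% of genes tested had a higher one. Within the sides the difference was 2.46 and 2.22. In DU-145 the gene had 21.6, 21.5 and 19.9 CPM with vehicle and 17.8, 20.1 and 15.7 with DOX. DOX sample 2 lay among the vehicle samples, and the log2 fold change of -0.22 ± 0.11 did not pass (edgeR adjusted p = 0.0837). It passed in 1 of 13 alternatives, the fit without that sample (-0.31, edgeR adjusted p = 0.0351). Without DOX sample 3 it was -0.14 (edgeR adjusted p = 0.330). The difference between the lines' DOX effects was 2.86 ± 0.25 (edgeR interaction, adjusted p = 0.000275).

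Even with DOX, CDKN2B stayed below its DU-145 level in LNCaP-AI, at 5.57 ± 1.20 CPM (SD, n = 3) against 17.9 ± 2.19 with DOX and 21.01 ± 0.980 with vehicle. With vehicle the gene was 23.9-fold lower in LNCaP-AI, a log2 difference of -4.58 ± 0.18 (edgeR adjusted p = 4.324e-06). The windows before the canonical start of CDKN2A, the one that makes p16 (chr9:21974858-21975107, minus strand), and of CDKN2B (chr9:22009306-22009555, minus strand) are shown because both genes were lower in LNCaP-AI. Both are from RefSeq, GRCh38.p14, and capitals mark GC boxes on either strand.
CDKN2A: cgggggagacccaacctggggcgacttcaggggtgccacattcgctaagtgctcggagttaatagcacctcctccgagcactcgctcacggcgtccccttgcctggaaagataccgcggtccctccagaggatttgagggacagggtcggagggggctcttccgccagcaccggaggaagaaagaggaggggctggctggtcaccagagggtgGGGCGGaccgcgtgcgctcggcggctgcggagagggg
CDKN2B: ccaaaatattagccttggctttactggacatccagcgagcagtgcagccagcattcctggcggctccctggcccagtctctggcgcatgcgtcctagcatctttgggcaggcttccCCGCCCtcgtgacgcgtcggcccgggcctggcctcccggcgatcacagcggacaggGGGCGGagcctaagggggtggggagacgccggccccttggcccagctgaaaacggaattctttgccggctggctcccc
The CDKN2A window held 1 GC box and the CDKN2B window 2, and they were 66.8% and 66.4% G and C. Neither held an E-box, a CCAAT box or a TATA box (TATAAA), which stood in 6.34%, 32.0% and 10.7% of all windows.

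**Figure D2:**
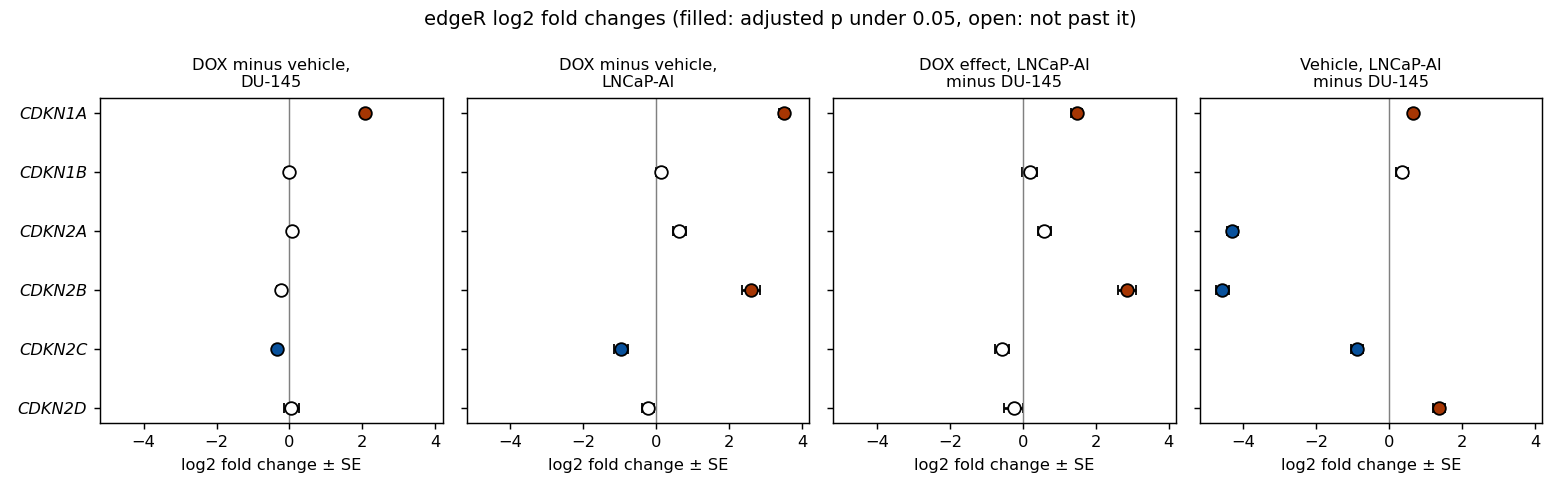
Log2 fold changes with standard errors (horizontal axis) of the 6 tested genes (rows) in 4 edgeR comparisons (panels). Filled points passed an adjusted p of 0.05: CDKN1A (2.07 and 3.51) was higher and CDKN2C (-0.35 and -0.96) lower with DOX in both lines, and CDKN2B passed as higher in LNCaP-AI (2.60) and not in DU-145 (-0.22).

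CDKN2C fell on DOX in both lines, in the opposite direction to CDKN1A. In DU-145 it had 54.6, 58.8 and 52.1 CPM with vehicle and 45.7, 41.8 and 41.4 with DOX. In LNCaP-AI it had 38.2, 26.9 and 26.2 CPM with vehicle and 14.8, 17.6 and 15.5 with DOX. No DOX sample reached the lowest vehicle sample of its line. The log2 fold change was -0.35 ± 0.08 in DU-145 (edgeR adjusted p = 0.000948) and -0.96 ± 0.19 in LNCaP-AI (edgeR adjusted p = 0.0270). Within the LNCaP-AI sides it was -1.20 for the side of vehicle 1 and -0.84 for the other. The difference between the lines, -0.57 ± 0.20, did not pass (edgeR interaction, adjusted p = 0.0954). In a single fit of all 12 samples the DU-145 change was -0.36 and did not pass (edgeR adjusted p = 0.0822).

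With vehicle, CDKN2C was lower in LNCaP-AI, with a log2 difference of -0.90 ± 0.16 (edgeR adjusted p = 0.00220). An annotated RNA on the opposite strand, ENSG00000290102, covers 617 of its 3018 exon bases, and reads of the pair could mix if strand was not used. The window before its canonical start (RefSeq, GRCh38.p14, chr1:50969995-50970244, plus strand) is shown as that of the member that fell, with the GC box in capitals.
CDKN2C: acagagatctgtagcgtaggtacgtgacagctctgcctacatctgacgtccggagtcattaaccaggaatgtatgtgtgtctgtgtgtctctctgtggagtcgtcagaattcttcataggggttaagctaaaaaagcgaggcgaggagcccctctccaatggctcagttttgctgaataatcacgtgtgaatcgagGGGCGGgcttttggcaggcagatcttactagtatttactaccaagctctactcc
It held 1 GC box, 1 E-box and 1 CCAAT box and was 48.8% G and C, below the median of all windows. Another RefSeq start of the gene lies 1539 bases upstream, and its window was 77.2% G and C with 5 GC boxes, so these values depend on the start taken.

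CDKN2D differed between the lines but showed no change on DOX that passed the test. In DU-145 it had 3.77, 3.74 and 4.45 CPM with vehicle and 4.90, 4.25 and 3.19 with DOX. In LNCaP-AI it had 11.3, 10.2 and 10.3 CPM with vehicle and 9.72, 7.53 and 10.4 with DOX. The groups overlapped in both lines. The log2 fold changes were 0.05 ± 0.20 (edgeR adjusted p = 0.869) and -0.23 ± 0.16 (edgeR adjusted p = 0.400). Within the LNCaP-AI sides the difference was -0.35 for that of vehicle 1 and -0.07 for the other. With vehicle it was higher in LNCaP-AI by 1.37 ± 0.16 (edgeR adjusted p = 0.000313), the only INK4 gene tested that was.

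The shares of INK4 genes in the family's summed level did not overlap between vehicle and DOX samples for CDKN2A and CDKN2C in DU-145 and for CDKN2A, CDKN2B and CDKN2C in LNCaP-AI. The summed level was 280 ± 20.2 CPM per kilobase with vehicle and 278 ± 1.90 with DOX in DU-145 (SD, n = 3, exact permutation p = 0.8), and 49.5 ± 8.86 and 41.7 ± 3.51 in LNCaP-AI (SD, n = 3, exact permutation p = 0.2). With 3 samples against 3 this test cannot go below 0.1. On the side of LNCaP-AI vehicle 1 the sum was 59.7 with vehicle and 43.9 and 43.6 with DOX, and on the other side 44.9 and 43.8 with vehicle and 37.7 with DOX, so it was lower with DOX on both sides. CDKN2A made up 77.3% of the DU-145 sum with vehicle and 81.8% with DOX, and CDKN2C 19.8% and 15.5%. In LNCaP-AI CDKN2C was the largest part with vehicle, at 61.5%, and made up 38.5% with DOX. The CDKN2A share there went from 22.8% to 42.5%, and that of CDKN2B from 0.475% to 3.44%. None of these 5 pairs of shares overlapped between vehicle and DOX samples (exact permutation p = 0.1 in each, the smallest possible). Shares of a family add up to the whole, so a fall in 1 raises others, and these are not 5 separate results. In DU-145 CDKN2A itself did not pass the test on DOX (0.08 ± 0.07, edgeR adjusted p = 0.380), while CDKN2C fell. The CDKN2D share was 15.2% and 15.6% in LNCaP-AI. The sizes depend on the length used. With every annotated exon counted, the LNCaP-AI difference was 11.8 percentage points for CDKN2A in place of 19.7 and 6.90 for CDKN2B in place of 2.97. Without length scaling it was 15.2 and 9.79. In DU-145 the CDKN2B difference was -0.838 with every exon and -0.985 without scaling, in place of -0.279.

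**Figure D3:**
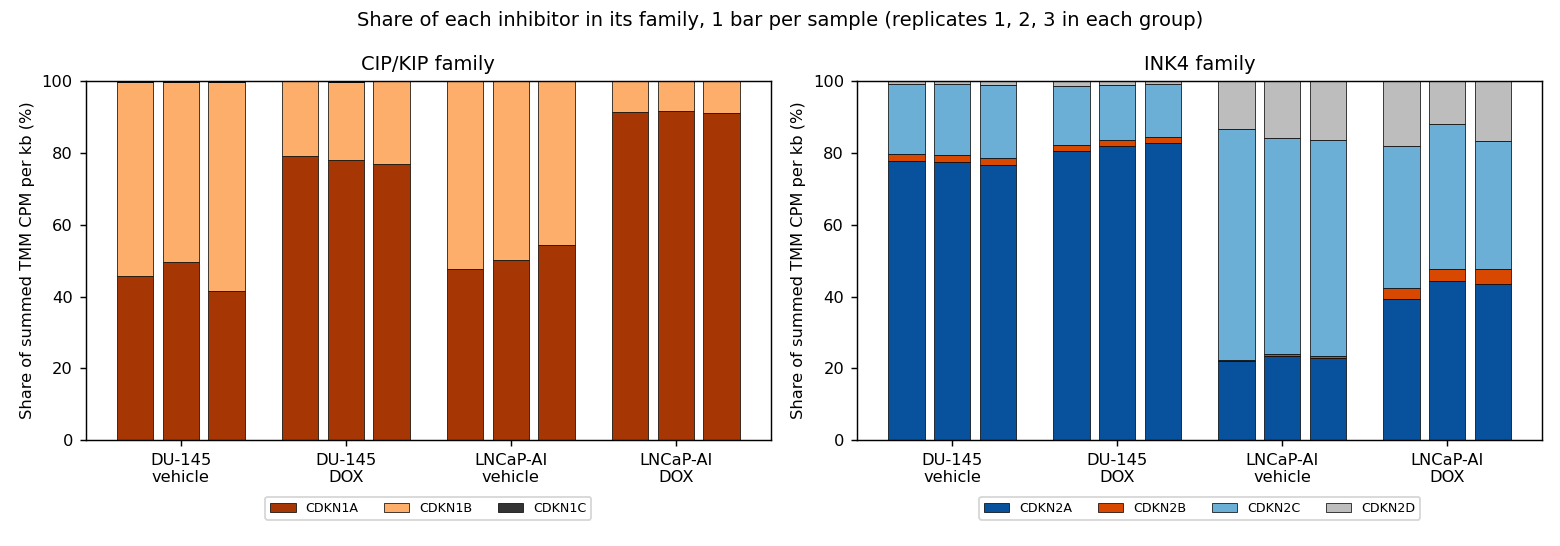
Share of each gene (vertical axis, %) in the summed CPM per kilobase of its family, with 1 bar per sample and 3 bars per group, CIP/KIP on the left and INK4 on the right. By canonical transcript length, CDKN1A goes from about even with CDKN1B to 78.0% in DU-145 and 91.4% in LNCaP-AI with DOX. With every annotated exon counted, CDKN1A is above CDKN1B with vehicle already. The CDKN2C share in LNCaP-AI is 61.5% with vehicle and 38.5% with DOX.

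The order of levels, as CPM per kilobase, differed between lines and treatments. In DU-145 with vehicle CDKN2A was highest at 217 ± 17.1 (SD, n = 3), followed by CDKN2C at 55.5 ± 3.42, CDKN1B at 24.4 ± 4.54 and CDKN1A at 20.4 ± 1.67, and the ranges of CDKN1B and CDKN1A overlapped. CDKN2B came next at 5.45 ± 0.254 and CDKN2D at 2.80 ± 0.281. With DOX CDKN1A moved to the second place, at 85.3 ± 2.24. In LNCaP-AI with vehicle CDKN1A (32.7 ± 2.84), CDKN1B (31.9 ± 4.26) and CDKN2C (30.6 ± 6.75) overlapped at the top, ahead of CDKN2A (11.2 ± 1.67), CDKN2D (7.43 ± 0.422) and CDKN2B (0.233 ± 0.0341). With DOX CDKN1A stood alone at 381 ± 44.7, and CDKN2A (17.8 ± 2.55) and CDKN2C (16.0 ± 1.45) overlapped. CDKN2B-AS1 and CDKN1C were lowest in every group, at 0.426 or less. The order depends on the length used. With every annotated exon counted, an alternative added after seeing the data, CDKN1A led in LNCaP-AI with vehicle at 23.1 ± 2.01, ahead of CDKN2C (10.1 ± 2.23), CDKN1B (8.31 ± 1.11) and CDKN2D (7.04 ± 0.400), and CDKN2A was at 2.82 ± 0.420. In DU-145 with DOX CDKN1A was then first at 60.3 ± 1.58 and CDKN2A second at 57.2 ± 1.06. In bulk samples fewer cells with a transcript and less of it per cell cannot be told apart.

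Over the members tested, 1 of 6 was higher and 1 of 6 lower on DOX in DU-145, where 26.3% of all genes tested were called higher and 25.3% lower. In LNCaP-AI 2 of 6 were higher and 1 of 6 lower, against 7.22% and 5.52% of all genes. Between the lines with vehicle 2 of 6 were higher and 3 of 6 lower in LNCaP-AI, against 35% and 30.2% of all genes. The higher ones were CDKN2D and CDKN1A, the latter by 0.64 ± 0.11 (edgeR adjusted p = 0.00150). CDKN1B differed by 0.35 ± 0.16 and did not pass (edgeR adjusted p = 0.0963), though it did in 4 of 13 alternatives. These were upper-quartile scaling (0.45, edgeR adjusted p = 0.0410), no filter on low counts (0.49, edgeR adjusted p = 0.0180), the single fit of all 12 samples (0.39, edgeR adjusted p = 0.0351) and leaving out LNCaP-AI vehicle sample 1 (0.30, edgeR adjusted p = 0.0248). For the difference in DOX effect 2 of 6 were called in the direction of LNCaP-AI and 0 of 6 the other way, against 5.43% and 3.76% of all genes. At an unadjusted p under 0.05 the edgeR interaction had 1 lower, CDKN2C, and DESeq2 called none lower. DESeq2 called 3 higher, CDKN1A, CDKN2B and CDKN2A (0.62 for the latter, DESeq2 adjusted p = 0.0166). Of all 16800 genes, DESeq2 called 1264 higher and 964 lower. An unadjusted edgeR p under 0.05 was found for 4275, both directions counted. These comparisons share samples: the vehicle samples serve the treatment and the line comparisons, and the interaction uses all 12.

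The LNCaP-AI calls of CDKN2B and CDKN2C, but not that of CDKN1A, were lost without either DOX sample on the side of vehicle 1. With all samples their log2 fold changes were 2.60 and -0.96. Without DOX sample 2, CDKN2B had an edgeR adjusted p of 0.0854 and CDKN2C of 0.109, and without DOX sample 3 they had 0.0829 and 0.127, with log2 fold changes of 2.58, -1.03, 2.45 and -0.93 in that order. CDKN1A was then the only gene called of all those tested. CDKN2A passed without vehicle sample 1 (0.77, edgeR adjusted p = 0.0442) or without DOX sample 1 (0.79, edgeR adjusted p = 0.0174). Without any other single sample it did not pass (edgeR adjusted p from 0.144 to 0.233). With side as a covariate in edgeR, CDKN1A, CDKN2A, CDKN2B and CDKN2C all passed, but side was derived from the counts under test.

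**Figure D4:**
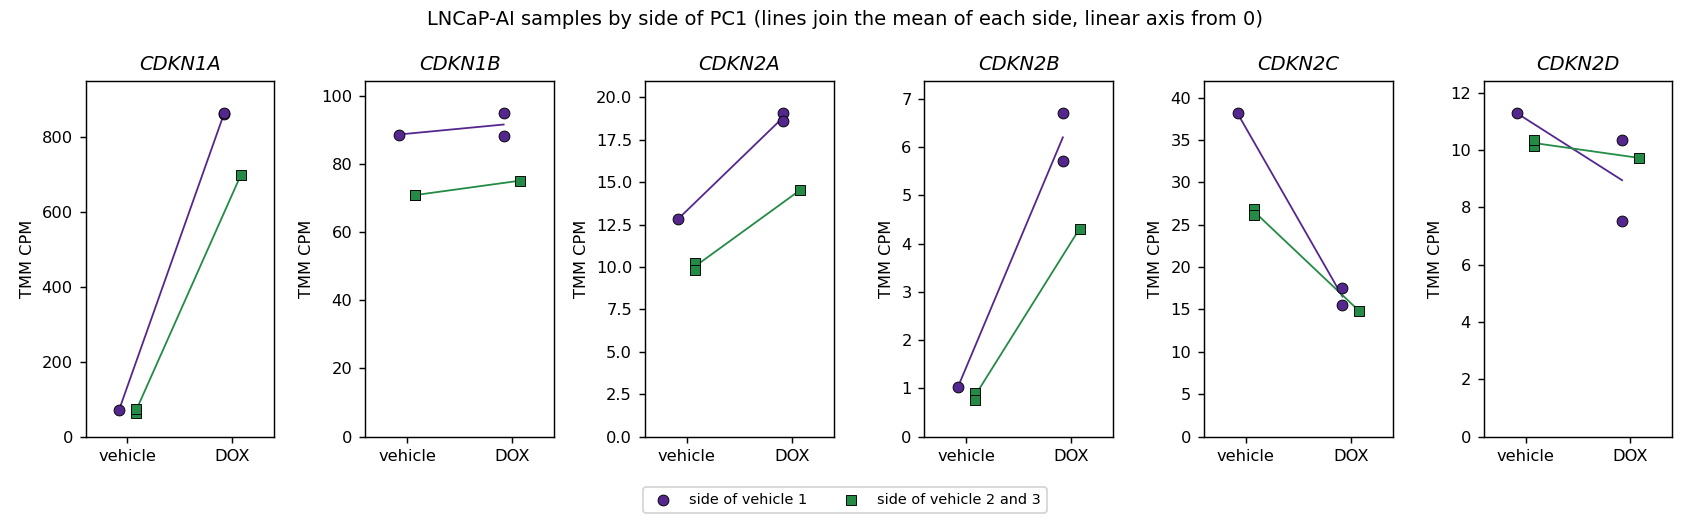
TMM-normalized CPM (vertical axis, linear from 0) of the 6 tested genes in the 6 LNCaP-AI samples, by treatment (horizontal axis) and by side of the first principal component (circles for the side of vehicle 1, squares for the other). Lines join the means of each side, with those of CDKN1A, CDKN2A and CDKN2B sloping upward and those of CDKN2C downward on both sides, while CDKN1B differs between sides, at 88.4 to 95.0 against 70.9 to 75.2.

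The kinases and cyclins that the inhibitors bind moved in both directions. In DU-145 2 of 10 tested were higher on DOX and 4 lower, against 26.3% and 25.3% of all genes, with a median log2 fold change of -0.12 against 0.00149 over all genes. Cyclin E1 (CCNE1, 0.84 ± 0.10, edgeR adjusted p = 7.66e-07) and cyclin D3 (CCND3, 0.53 ± 0.08, edgeR adjusted p = 1.44e-05) rose. Cyclin A2 (CCNA2, -1.04 ± 0.07, edgeR adjusted p = 6.7e-10) and the mitotic kinase CDK1 (-0.43 ± 0.07, edgeR adjusted p = 5.17e-05) fell, as did CDK2 and CDK6. In LNCaP-AI 2 of 11 were higher and 4 lower, against 7.22% and 5.52% of all genes, with a median of -0.44 against -0.05. Cyclin D1 (CCND1, 0.70 ± 0.08, edgeR adjusted p = 0.0123) and CCNE1 (0.41 ± 0.10, edgeR adjusted p = 0.0478) rose, and CDK1 (-0.88 ± 0.16, edgeR adjusted p = 0.0227), CDK2 (-0.51 ± 0.09, edgeR adjusted p = 0.0233), CCNE2 and CCNA2 fell. CDK4, the main partner of INK4 proteins, passed in neither line.

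Of 8 pocket proteins and E2F factors, which act downstream of the inhibitors, 0 were called higher by edgeR in either line, and 0 were higher at an unadjusted p under 0.05. Of all genes, edgeR called 26.3% higher in DU-145 and 7.22% in LNCaP-AI. An unadjusted edgeR p under 0.05 was found for 7768 of 13644 genes in DU-145 and 5003 of 16030 in LNCaP-AI, both directions counted. DESeq2 called 4 of the list in DU-145 and 2 in LNCaP-AI, both directions counted, against 6079 and 3517 of all genes. In DU-145 4 fell, among them RBL1, which encodes the pocket protein p107 (-1.38 ± 0.08, edgeR adjusted p = 1.17e-10), and E2F4 (-0.63 ± 0.08, edgeR adjusted p = 1.17e-06), with RBL2 and E2F1. In LNCaP-AI RBL1 (-1.71 ± 0.22, edgeR adjusted p = 0.0134) and E2F1 (-0.82 ± 0.14, edgeR adjusted p = 0.0213) fell. The medians were -0.20 and -0.35, against 0.00149 and -0.05 over all genes, of which edgeR called 25.3% and 5.52% lower. RBL1 was called lower in both lines, and E2F1 as well. DU-145 cells are known to lack working RB.

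Among the factors known to activate these genes, 5 of 12 tested were higher and 2 lower in DU-145, where 26.3% of all genes were higher and 25.3% lower. The median was 0.155, against 0.00149 over all genes. KLF4, a known activator of CDKN1A, rose by 1.18 ± 0.13 on the log2 scale (edgeR adjusted p = 3.6e-07) and KLF6 by 0.52 ± 0.08 (edgeR adjusted p = 1.39e-05), along with FOXO3, ETS1 and ETS2. SMAD2 fell by 0.58 (SE 0.07, edgeR adjusted p = 5.9e-07) and SMAD4 by 0.27 (SE 0.09, edgeR adjusted p = 0.0141), both being signal carriers of the TGF-beta pathway. In LNCaP-AI edgeR called 0 of 14, against 7.22% of all genes called higher and 5.52% lower. There 2 had an unadjusted edgeR p under 0.05 (FOXO4 and SP1, named after their values were seen), and DESeq2 called 2. Of all 16030 genes tested there, 5003 had such a p and DESeq2 called 3517. The median was -0.40, against -0.05 over all genes. KLF4 differed between the lines' responses by -1.95 ± 0.44 (edgeR interaction, adjusted p = 0.0219). Its own change in LNCaP-AI, -0.80 ± 0.39, did not pass (edgeR adjusted p = 0.226). The LNCaP-AI groups overlapped, at 8.83 to 16.62 CPM with vehicle and 5.13 to 12.25 with DOX.

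Among 12 known repressors, MYC, which represses CDKN1A and CDKN2B through ZBTB17, was the only one that edgeR called higher on DOX in DU-145, by 0.59 ± 0.07 (edgeR adjusted p = 4.54e-07). There 5 were lower, led by the Polycomb subunit BMI1, a repressor of the CDKN2A locus (-1.15 ± 0.13, edgeR adjusted p = 7.38e-07), and ID1 (-0.49 ± 0.07, edgeR adjusted p = 7.4e-06), with CBX7, RNF2 and SUZ12. Of all genes 26.3% were higher and 25.3% lower there. The median was -0.22, against 0.00149. In LNCaP-AI edgeR called 1, EZH2, the methyltransferase of Polycomb repressive complex 2, lower with DOX (-0.72 ± 0.11, edgeR adjusted p = 0.0180), where DESeq2 called 3 and 4 had an unadjusted edgeR p under 0.05. The median was -0.04, against -0.05 over all genes, of which edgeR called 7.22% higher and 5.52% lower. Of all 16030 genes tested there, DESeq2 called 3517 and 5003 had an unadjusted edgeR p under 0.05.

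A list of 12 genes holds ubiquitin ligases and their cofactors, which act on p21, p27 and p57 after translation. In DU-145 6 were higher and 2 lower, against 26.3% and 25.3% of all genes. The higher ones were led by DDB1 (0.44 ± 0.07, edgeR adjusted p = 5.31e-05) and CUL1 (0.27 ± 0.07, edgeR adjusted p = 0.00246). The lower ones were SKP2, which marks p27 for breakdown (-0.32 ± 0.07, edgeR adjusted p = 0.000984), and CUL4B (-0.30 ± 0.08, edgeR adjusted p = 0.00546). In LNCaP-AI edgeR called 1, DTL, which targets p21 in S phase (-0.98 ± 0.17, edgeR adjusted p = 0.0217), where DESeq2 called 4 and 5 had an unadjusted edgeR p under 0.05. Of all genes in LNCaP-AI edgeR called 7.22% higher and 5.52% lower. Among the 16030 tested, DESeq2 called 3517 and 5003 had an unadjusted edgeR p under 0.05. The medians were 0.15 and -0.17, against 0.00149 and -0.05 over all genes.

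Of 8 stress and growth arrest genes, such as the sestrins, which respond to stress, and GADD45A, which responds to DNA damage, edgeR had 3 higher and 2 lower in DU-145 and 4 higher and 1 lower in LNCaP-AI, with medians of 0.16 and 0.94. Over all genes 26.3% were higher and 25.3% lower in DU-145 and 7.22% and 5.52% in LNCaP-AI, with medians of 0.00149 and -0.05. In DU-145 SESN2 (1.82 ± 0.11, edgeR adjusted p = 1.57e-10), GADD45A (1.50 ± 0.10, edgeR adjusted p = 6.45e-10) and MDM2 rose, and CCNG1 (-0.81 ± 0.10, edgeR adjusted p = 8.97e-07) and MDM4 (-0.41 ± 0.11, edgeR adjusted p = 0.00423) fell. In LNCaP-AI SESN1 (1.50 ± 0.18, edgeR adjusted p = 0.0123), BTG2 (1.77 ± 0.22, edgeR adjusted p = 0.0125), MDM2 and SESN2 rose, and MDM4 (-0.37 ± 0.08, edgeR adjusted p = 0.0366) fell. BTG2 and SESN1 differed between the lines' responses, by 2.07 ± 0.24 (edgeR interaction, adjusted p = 0.00110) and 1.45 ± 0.28 (edgeR interaction, adjusted p = 0.0108). As with CDKN2B and CDKN2C, no LNCaP-AI call of these lists held without DOX sample 2 or without DOX sample 3.

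The tested genes nearest to the members moved in both directions. At CDKN1A, the splicing factor gene SRSF3 on the left fell in both lines (-0.57 ± 0.08, edgeR adjusted p = 8.54e-06, and -0.45 ± 0.10, edgeR adjusted p = 0.0369), and STK38 and PPIL1 passed in neither. CPNE5 on the right was higher in DU-145 (1.25 ± 0.24, edgeR adjusted p = 0.000258) and did not pass in LNCaP-AI (0.51 ± 0.30, edgeR adjusted p = 0.307). Beside CDKN2A and CDKN2B, MTAP, a methionine salvage gene, did not pass on DOX in either line (-0.18 ± 0.08 and -0.05 ± 0.27, edgeR adjusted p = 0.0796 and 0.904). With vehicle MTAP was lower in LNCaP-AI, with a log2 difference of -1.16 ± 0.21 (edgeR adjusted p = 0.00215). DMRTA1 on the other side had 18 to 48 counts with vehicle in DU-145 and at most 1 in LNCaP-AI (edgeR adjusted p = 0.000105). The next gene on that side, LINC01239, was not tested between the lines and had 0 to 2 counts with vehicle in DU-145 and 9 to 14 in LNCaP-AI. At CDKN2C, the gene FAF1 on the left rose in DU-145 (0.46 ± 0.07, edgeR adjusted p = 2.29e-05), and RNF11 on the right rose in both lines (0.32 ± 0.09, edgeR adjusted p = 0.00796, and 0.81 ± 0.17, edgeR adjusted p = 0.0332), as did TTC39A in LNCaP-AI (1.17 ± 0.23, edgeR adjusted p = 0.0295). At CDKN1B, APOLD1 fell in DU-145 (-0.58 ± 0.19, edgeR adjusted p = 0.0163). At CDKN2D, ATG4D (0.88 ± 0.10, edgeR adjusted p = 7.16e-07) and AP1M2 (1.67 ± 0.49, edgeR adjusted p = 0.00775) rose and SLC44A2 (-0.54 ± 0.08, edgeR adjusted p = 1.96e-05) fell in DU-145. AP1M2 rested there on only 2 to 5 counts with vehicle and 10 to 12 with DOX. Where tested on DOX, the remaining neighbours KRI1, GPR19, CREBL2, DDX47, KCNQ1, KCNQ1OT1, CDKN2A-DT, DMRTA1, LINC01239 and DMRTA2 did not pass in edgeR.

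**Figure D5:**
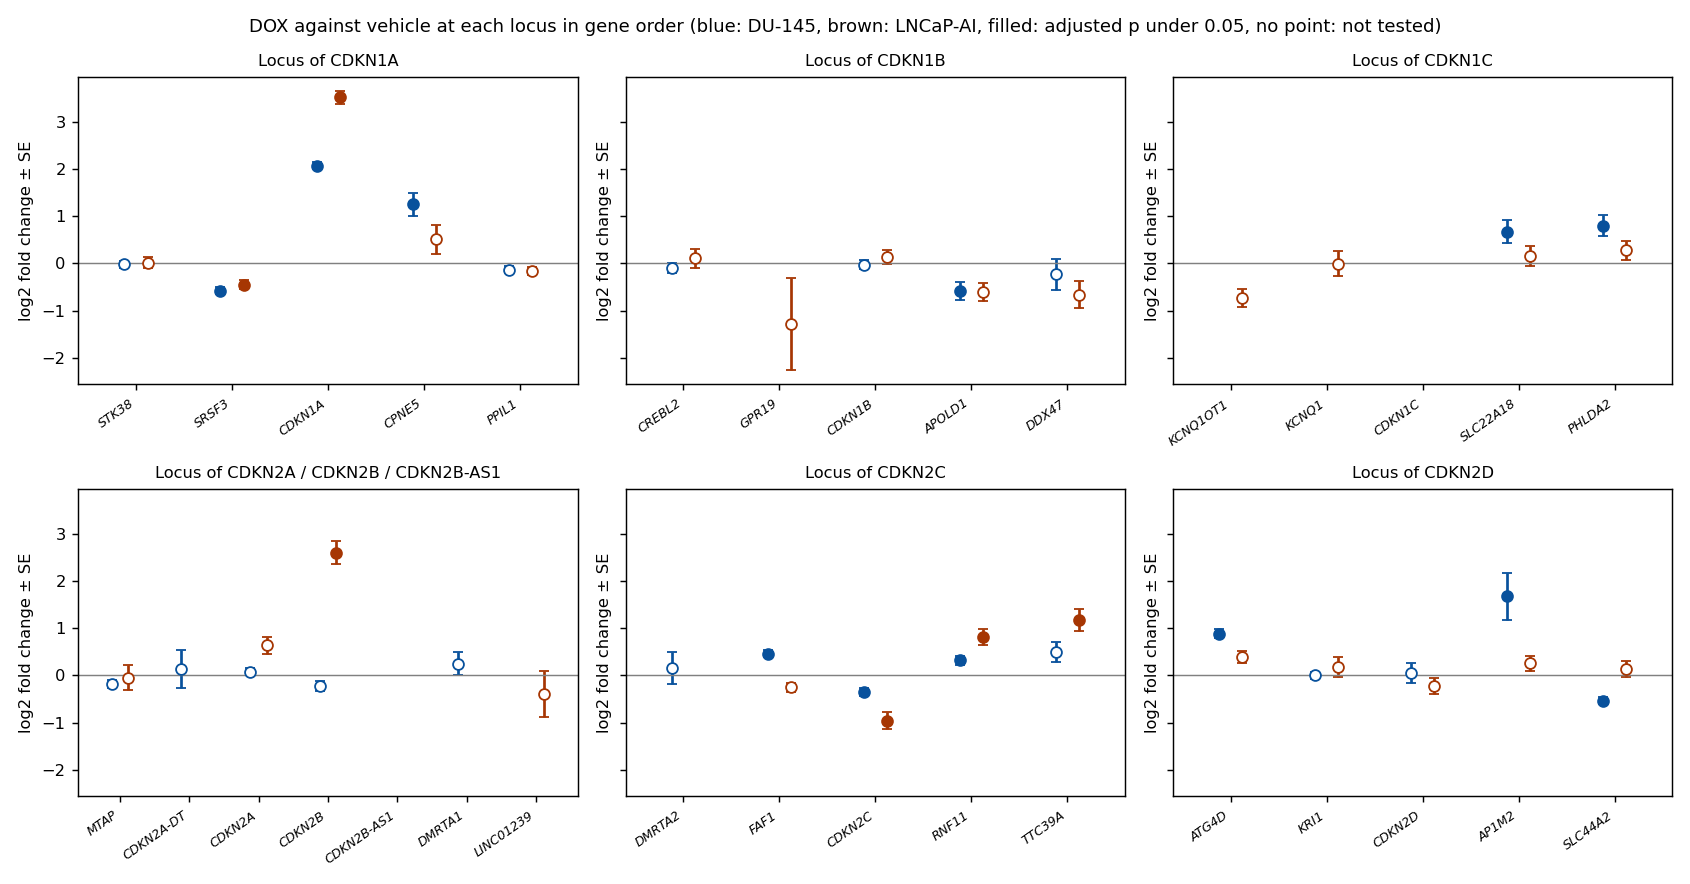
Log2 fold change of DOX against vehicle with standard errors (vertical axis) for each member and its 2 nearest tested genes on each side, in gene order, with DU-145 in blue and LNCaP-AI in brown. Filled points passed an adjusted p of 0.05, and CDKN1A at 2.07 and 3.51 and CDKN2B at 2.60 stand above the genes beside them.

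The genes whose levels ran most like each member were found over the 12 samples of log2 CPM, centred on the mean of each line, among 14061 other genes. All samples share the treatment groups and, in LNCaP-AI, the sides, so the coefficients are a description. CDKN1A ran with SQSTM1, which encodes the autophagy receptor p62 (Pearson r = 0.993), the quinone reductase gene NQO2 (0.989) and the lysosomal gene PSAP (0.986). CDKN2B ran with KLK2, a kallikrein gene (0.989), DAB1 (0.989) and ENSG00000251095 (0.988), none of which was tested in DU-145. CDKN2C ran with BARD1, the partner of BRCA1 (0.983), RFC1, a clamp loader subunit (0.982), and the replication fork gene TIMELESS (0.976). For CDKN2A these were CERS4 (0.978), CAB39L (0.978) and CNTN3 (0.977), for CDKN1B CD164 (0.955), MOB1B (0.937) and PCDHGA10 (0.933), and for CDKN2D ZRANB3 (0.829), HOXA11 (0.806) and GKAP1 (0.779). CNTN3 and PCDHGA10 were likewise not tested in DU-145.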

How the data were processed

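Libraries were made with the TruSeq Stranded mRNA kit, reads were aligned with STAR, and the authors deposited raw counts per gene with no normalization. The submitters' processing notes name CASAVA 1.8.2, STAR 2.7.0, DESeq2 1.24.0 and the build GRCh38.p7, and the counting tool and its strand setting are not given in the sources used here. Of 58037 Ensembl identifiers, 56948 matched a symbol after the version was cut. Positions and transcript lengths are from GENCODE 44 and promoter windows from RefSeq. Groups followed the sample labels.

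The main test was edgeR 4.0.16 (R 4.3.3), quasi-likelihood, with TMM factors, restricted to genes that reached 10 counts in 3 or more samples of the fit. Benjamini-Hochberg adjustment ran over all genes tested, and a gene was called at an adjusted p under 0.05. The standard error is the log2 fold change divided by the square root of F. Each line, the vehicle samples, and all 12 samples with an interaction were fitted separately. Displayed CPM used TMM factors from all 12 samples, and log2 CPM a prior count of 2. Shares were compared with exact permutation tests (scipy 1.17.1). Alternatives were DESeq2 1.42.0, its size factors, upper-quartile scaling, other filters, a replicate block, a fit of all samples, the side as a covariate and leaving out each sample. The fits were tested on simulated data. Replicates differed beyond counting noise (chi-square over degrees of freedom 2.53 or more for every pair), so none was counted as a duplicate.

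Named genes are all members, MUC1, the 2 called genes with the smallest adjusted p per list, direction and line, the 2 nearest tested genes on each side of a locus, and the 3 most similar genes. Other called list genes are named without values. The members and lists were chosen with earlier results of these data known. Some items of these lists are not reported here, and counts and sums leave them out.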

Additional observations from a re-analysis of the deposited data

Results flagged for a closer look

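The response to DOX differed between the lines for 2 of the 6 genes tested, by the interaction of line and treatment in edgeR over all 12 samples. Of all 16800 genes tested, 5.43% were called in the direction of LNCaP-AI, as these 2 were, and 3.76% the other way. For CDKN1A the LNCaP-AI log2 fold change exceeded that of DU-145 by 1.48 (adjusted p = 0.000458), and over 19 alternatives it was between 1.41 and 1.57 with adjusted p values up to 0.0457. For CDKN2B the difference was 2.86 (adjusted p = 0.000275), between 2.704 and 3.02 over the alternatives with adjusted p values up to 0.0457. CDKN1A was higher with DOX in 3 of 3 samples of each line, and CDKN2B was higher than every vehicle sample in 3 of 3 DOX samples of LNCaP-AI and in 0 of 3 of DU-145. At baseline CDKN2B in LNCaP-AI rested on 17 to 23 counts per sample. No group had 4 or more samples, so single samples were not tested as outliers.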

How the results depend on the processing

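Replicate numbers do not pair the samples: deviations of same-numbered samples from their group means correlated at -0.941 to -0.813 in LNCaP-AI and -0.0895 to 0.125 in DU-145. With the numbers as a replicate block, 0 members and 0 genes were called in LNCaP-AI (2909 genes at an unadjusted edgeR p under 0.05), with CDKN1A at 3.51 (edgeR adjusted p = 0.158), and 52 genes were called for the difference between lines, CDKN1A and CDKN2B among them. Members called in DU-145 numbered 1 and genes 4083 when all 12 samples were fitted together. In LNCaP-AI 2043 genes were called, against 3517 with DESeq2, 3933 with all 12 samples and 6271 with side as a covariate. For the difference between lines 1543 genes were called, against 884 without the filter, and 4109 genes and 4 members with side as a covariate. Leaving out 1 sample gave 1 to 4 members and 1 to 3538 genes in LNCaP-AI, and 737 to 3471 genes for the difference between lines. In DU-145 it moved CDKN1B between -0.168 and 0.0636 and CDKN2D between -0.0854 and 0.195, across 0 in both cases, with no call. Of 354 single-gene values under alternatives, 326 kept direction and call, 15 gained a call, 8 lost it and 5 reversed. Counting all exons in the length, added after seeing the data, changed the share difference of CDKN1A to 21.3 (DU-145) and 23.1 points (LNCaP-AI), of CDKN2A to 11.8 (LNCaP-AI), of CDKN2B to -0.838 (DU-145) and 6.90 (LNCaP-AI) and of CDKN2C to -19.0 (LNCaP-AI). CPM without length scaling gave 15.2 for CDKN2A and 9.79 for CDKN2B in LNCaP-AI and -0.985 for CDKN2B in DU-145. Other than by the construction of these alternatives, the cause was not tested. With 3 samples a group, depth limits CDKN1C and CDKN2B-AS1.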
